A study of Mus musculus with 15 samples.

Results

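The 8 genes described here, Pklr, Pfkl, Fbp1, Pck1, G6pc, Gys2, Pygl and Slc2a2, encode liver enzymes that break down, make and store glucose, and the transporter that carries it across the hepatocyte membrane. They were taken by name, with every probe set that the platform annotation gives to them, which makes 14 of the 45037 probe sets that are not array controls. Of these, 12 were bright enough to be tested, so that all 8 genes were measured, among 10525 genes in all. The array holds 3 probe sets each for Pklr, Pfkl and Pck1 and 1 for each of the other genes. Where several were tested, the one with the highest mean signal stands for the gene, and the others are given beside it.

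Livers of 15 male C57BL/6J mice were measured, 1 GeneChip array per mouse, to ask how a diet that produces steatohepatitis, and β-cryptoxanthin added to it, alter liver gene expression. The mice entered at 8 weeks of age and were fed for 12 weeks. The 5 CL+CX mice received the CL diet with β-cryptoxanthin, a xanthophyll carotenoid, at 0.003% by the treatment text and 0.005% by the sample titles. The 5 CL mice received a diet of which 60% was cocoa butter and 38.23% CRF-1, with cholesterol at 1.25% and sodium cholate at 0.5%, and the 5 NC mice received CRF-1 standard chow, so that both CL diets carry cholate as well as fat and cholesterol. All mice were of 1 strain and sex, food was freely available, and the hour of killing and any fast are not given in the sources used here. Each value is a MAS5 signal, a probe set's brightness in array units, scaled so that every array had a 75th percentile of 54.11. Signals can be compared between mice for 1 probe set, but not between probe sets.

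Glycolysis in the liver runs from glucose to pyruvate and feeds fat synthesis after a meal, whereas gluconeogenesis runs the other way and supplies blood glucose in fasting. Each direction has its own enzymes at the irreversible steps, and these are controlled by insulin, glucagon and glucocorticoids, by glucose itself and by the circadian clock. Glycogen synthase and glycogen phosphorylase fill and empty the carbohydrate store of the hepatocyte. GLUT2, the product of Slc2a2, lets glucose move in either direction.

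Promoter windows, running from 250 bases before to 50 after a start site, were taken from RefSeq (GRCm38.p6) and matched 7 of the 8 genes, with 2 starts for Pklr. Pklr and Slc2a2 lie on chromosome 3, Pck1 on chromosome 2, Pfkl on chromosome 10, G6pc on chromosome 11, Pygl on chromosome 12 and Fbp1 on chromosome 13. The windows of Pklr (downstream start, the liver type), Pck1 and G6pc are shown because these genes are textbook cases of control by glucose and by hormones and because the pyruvate kinase and carboxykinase genes carry most of the differences below. They lie on the + strand at chr3:89136373-89136672, chr2:173152823-173153122 and chr11:101367466-101367765. Capitals mark the letters matched.
Pklr: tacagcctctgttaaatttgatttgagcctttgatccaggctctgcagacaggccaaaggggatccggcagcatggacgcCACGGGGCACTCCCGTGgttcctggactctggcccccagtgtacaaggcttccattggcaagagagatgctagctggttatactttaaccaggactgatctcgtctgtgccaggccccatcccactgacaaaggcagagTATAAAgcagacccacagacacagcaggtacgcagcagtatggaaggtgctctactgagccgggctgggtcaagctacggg
Pck1: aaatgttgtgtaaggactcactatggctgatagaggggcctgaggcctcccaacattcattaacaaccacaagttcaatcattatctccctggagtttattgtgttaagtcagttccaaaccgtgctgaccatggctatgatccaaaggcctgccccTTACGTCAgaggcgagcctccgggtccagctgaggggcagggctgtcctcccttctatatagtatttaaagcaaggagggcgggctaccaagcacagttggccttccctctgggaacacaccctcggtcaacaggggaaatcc
G6pc: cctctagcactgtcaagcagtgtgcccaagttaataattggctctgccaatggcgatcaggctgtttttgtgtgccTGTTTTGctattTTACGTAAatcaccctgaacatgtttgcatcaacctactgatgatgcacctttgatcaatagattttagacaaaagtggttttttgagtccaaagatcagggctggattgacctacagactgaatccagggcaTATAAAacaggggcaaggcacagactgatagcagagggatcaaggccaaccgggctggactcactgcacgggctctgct
The capitals at 170 bases before the Pklr start match the carbohydrate response element bound by ChREBP (Mlxipl) and Mlx, written as CACGNG and CNCGTG with 5 bases of any kind between them, which was found in 15 of 32851 windows (0.0457%). In Pck1, TTACGTCA at 93 bases before the start is a form of the cAMP response element (0.499% of windows). In G6pc, TTACGTAA at 162 bases was searched as a form of the D-box bound by Dbp, Tef and Hlf (0.119%). It is close in letters to TTACGTCA, the cAMP response element form marked in Pck1, so the letters do not settle which type of site it is. TGTTTTG at 174 bases is the core of an insulin response sequence, CAAAACA, on the other strand (6.28%). A TATA box, TATAAA (13.6% of windows), lay 31 bases before the Pklr start and 29 before that of G6pc. Also searched, on both strands, were the E-box CACGTG (7.15%), TGACGTCA (1.79%), TTATGTAA (0.938%) and GTAAACA (3.65%). The carbohydrate response element holds no intact E-box, and TTACGTAA, TTATGTAA, TTACGTCA and TGACGTCA do not overlap one another in these windows. None of the 9 motifs was found in the windows of Slc2a2, Fbp1, Pfkl and Pygl or at the upstream start of Pklr. TTACGTCA was searched as the element of Pck1, so its match in that window is no test. The motifs were chosen knowing these genes, and the shares of windows only tell how common the letters are. A match is a run of letters and does not show that a factor binds there.

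Several measures of the arrays and the tissue moved with the diets. Hepatocyte markers were high on all arrays, and 0 of the 6 measured passed the test in any comparison (summed signal 40710 to 49410 in CL+CX, 39040 to 62500 in CL and 52440 to 65240 in NC mice). Even so, every CL+CX sum lay below every NC sum. Of 12 macrophage and Kupffer cell markers, 12 were higher in CL than NC mice, and 7 were lower and 0 higher in CL+CX than CL mice (sums 2628 to 5976 in CL+CX, 7435 to 10090 in CL and 1265 to 3011 in NC mice). Of 15 clock genes, CL+CX mice had 8 higher and 4 lower when set against CL mice, and CL mice had 1 higher and 2 lower when set against NC mice (sums 2625 to 2892 in CL+CX, 1250 to 1753 in CL and 1771 to 2094 in NC mice). The β-actin control gave a log2 signal 3′ minus 5′ of 0.949 to 1.17 in CL+CX, 0.699 to 0.945 in CL and 0.842 to 1.05 in NC mice, so that the CL+CX and CL arrays did not overlap. Sinusoidal endothelial markers were lower in CL+CX than CL mice for 2 of 8, and neither muscle nor fat cell markers passed the filter (0 tested on either list). CL replicate 2 correlated less with its own group (mean r = 0.941) than the other CL arrays did (0.957 to 0.962). The part of these measures in the results below was not tested, except where a value is given.

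At gene level, 0 of the 8 genes were higher and 3 (Fbp1, Pck1 and Gys2) lower in CL than NC mice, where 7.18% of all genes tested were higher and 6.77% lower. In CL+CX against CL mice, 1 of the 8, Pklr, was higher and 0 lower, beside 1.46% of all genes higher and 1.79% lower. Between CL+CX and NC mice 2 (Pklr and Slc2a2) were higher and 1 (Pck1) lower, beside 5.07% and 4.87%. The median log2 difference of the 8 was -0.30, 0.28 and -0.16 in the 3 comparisons, against -0.08, 0.02 and -0.04 over all genes. These are limma tests over the 20361 probe sets that passed a signal filter, with Benjamini-Hochberg adjustment and a threshold of 0.05. The comparisons share mice, so that a call in one is not independent of a call in another. Since whole tissue was used, fewer cells of a type and less RNA per cell cannot be told apart.

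**Figure D1:**
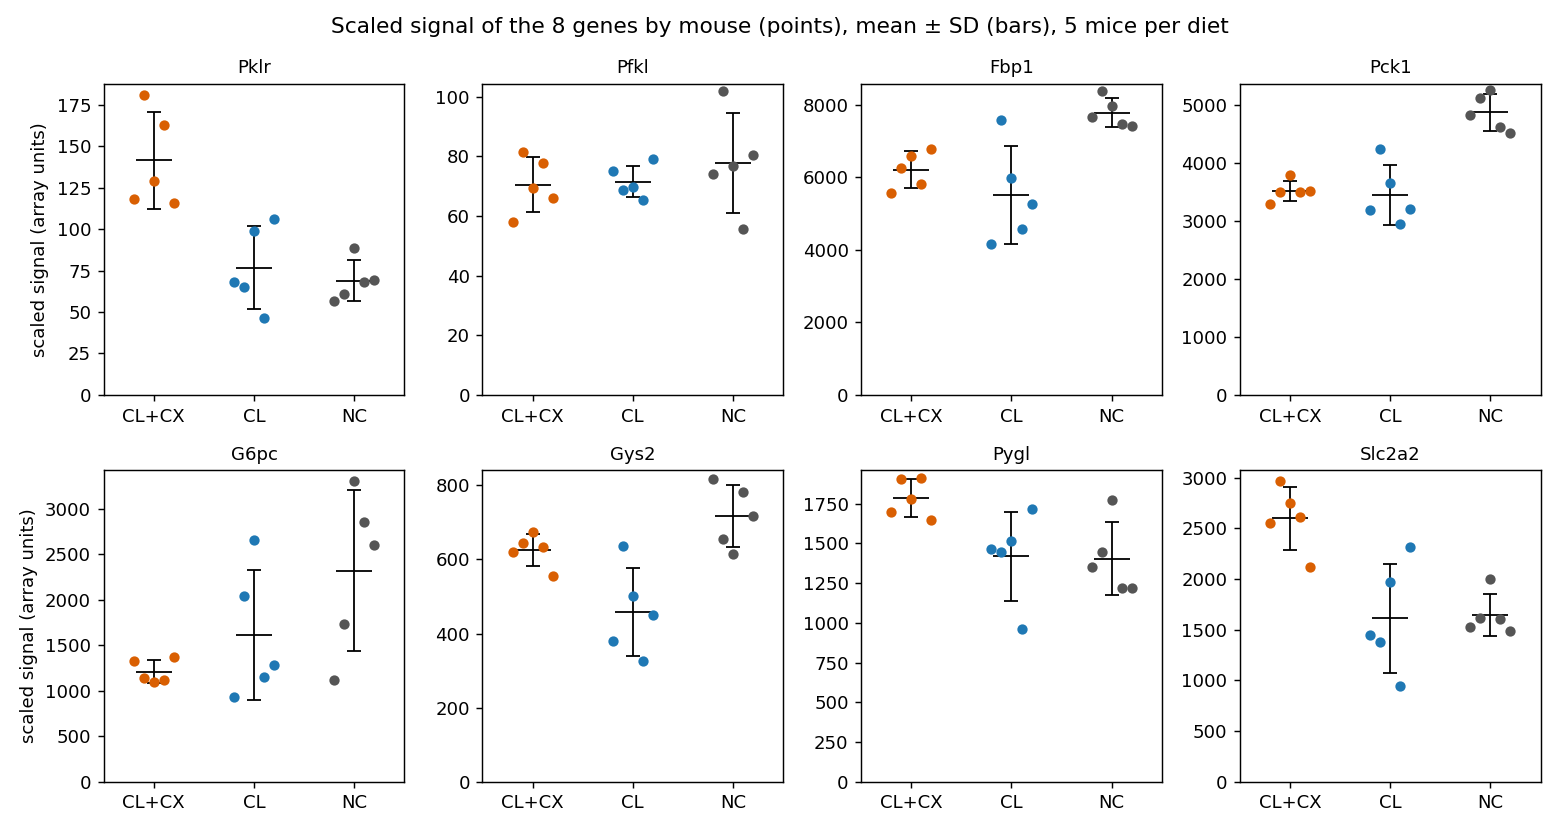
Scaled signal (array units, linear axis from 0) of the 8 genes, 1 point per mouse with the mean and SD of 5 mice as bars, for CL+CX, CL and NC mice. Pklr stood above both other diets in every CL+CX mouse, and Pck1 in every NC mouse stood above all CL and CL+CX mice.

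**Figure D2:**
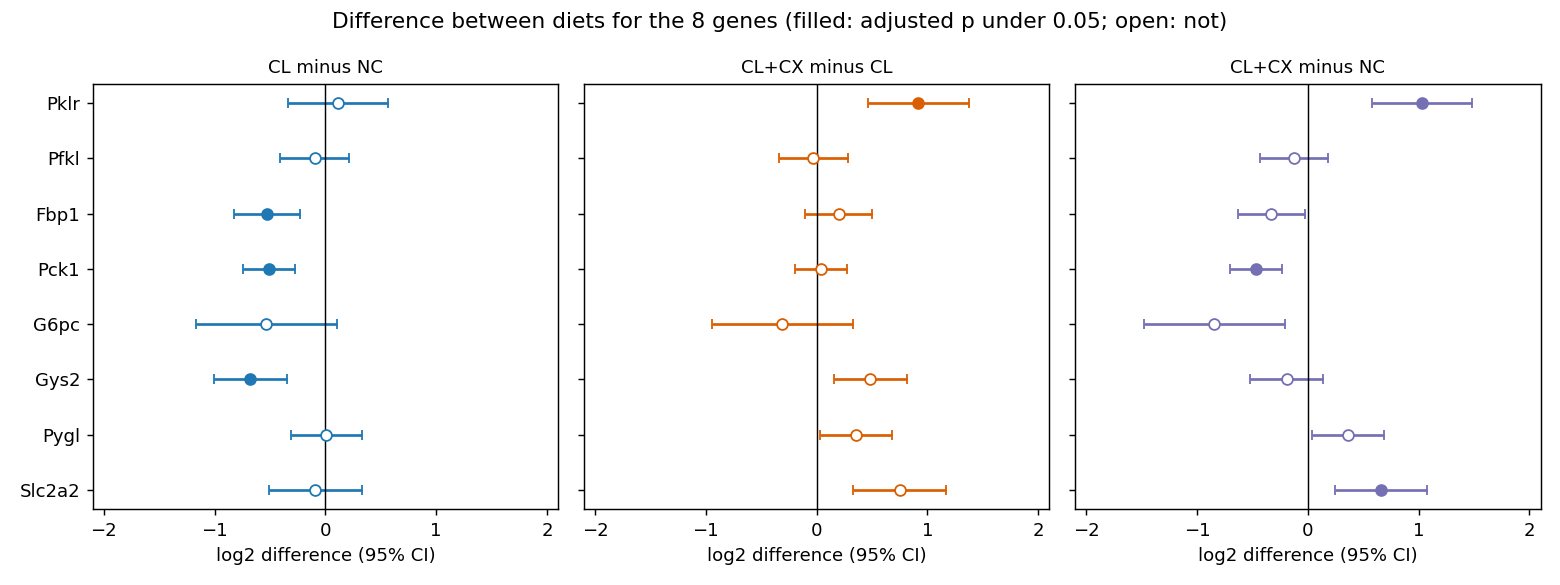
Log2 difference between diets for the 8 genes with its 95% interval from limma (5 mice per diet), where filled points passed an adjusted p of 0.05. Fbp1, Pck1 and Gys2 passed below 0 in CL minus NC, Pklr above 0 in CL+CX minus CL, and Pklr, Slc2a2 and Pck1 in CL+CX minus NC.

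Pklr, which encodes the liver and red cell pyruvate kinase of the last step of glycolysis, was the gene of the 8 that passed between CL+CX and CL mice. Its signal was 118, 181, 129, 163 and 116 in CL+CX mice, 68.0, 64.9, 98.8, 46.3 and 106 in CL mice and 56.9, 60.8, 88.8, 67.8 and 69.6 in NC mice. Every CL+CX mouse stood above every CL and NC mouse, with a narrow gap to CL replicate 5, and CL and NC mice overlapped. The means were 141 ± 29.0 in CL+CX, 76.8 ± 25.0 in CL and 68.8 ± 12.3 in NC mice (SD, n = 5 each). Pklr was 1.89-fold higher in CL+CX than CL mice (log2 0.92, standard error 0.21, adjusted p = 0.0349) and 2.04-fold higher than NC mice (log2 1.03, adjusted p = 0.00828). In this probe set, CL and NC mice were not told apart (log2 0.11, 95% interval -0.34 to 0.57, adjusted p = 0.776).

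The second Pklr probe set, 1421258_a_at, gave the same order of diets. It had 117, 122, 116, 109 and 82.9 in CL+CX mice, 46.4, 53.5, 79.5, 47.5 and 90.3 in CL mice and 38.9, 37.9, 59.9, 47.5 and 39.5 in NC mice. It passed between CL+CX and CL mice (log2 0.83, adjusted p = 0.0381), although CL+CX replicate 5 lay under CL replicate 5, and between CL+CX and NC mice (log2 1.30, adjusted p = 0.00152). CL minus NC was at 0.47 and did not pass (adjusted p = 0.142). The third, 1421259_at, was the dimmest, at 42.7 to 63.7 in CL+CX, 18.4 to 51.5 in CL and 4.60 to 23.7 in NC mice, where only 3 of 5 NC arrays lay above the array median. It passed the signal filter through CL+CX and CL mice and not through NC mice, whose 2 lowest values were at 4.60 and 4.66, so no fold against NC is given for it. CL and NC mice overlapped, and the call of this probe set as higher in CL than NC mice (adjusted p = 0.034) rests on those dim NC values. It did not pass between CL+CX and CL mice (log2 0.75, 95% interval -0.17 to 1.68, adjusted p = 0.365). The 2 brighter probe sets were thus both higher in CL+CX mice against each other diet, and the third adds no separate evidence against NC.

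The difference of Pklr between CL+CX and CL mice was close to the threshold. With 1 mouse left out it was 0.75 to 1.05 on the log2 scale at an adjusted p of 0.0144 to 0.0836, and it did not pass without CL replicate 1, 2 or 4 or CL+CX replicate 2, 3 or 4 (adjusted p = 0.0703, 0.0571, 0.0632, 0.0832, 0.0788 and 0.0836). With the β-actin measure of each array as a covariate, which does not overlap between these 2 diets, the difference was 0.53 (adjusted p = 0.917) against CL and 0.82 (adjusted p = 0.0776) against NC mice. The call against CL was also lost with no signal filter (adjusted p = 0.154), with signals as deposited (0.132), with the mean of the 3 probe sets (0.0611), with NC mice left out of the fit (0.077) and with the replicate number as a block (0.0565).

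**Figure D3:**
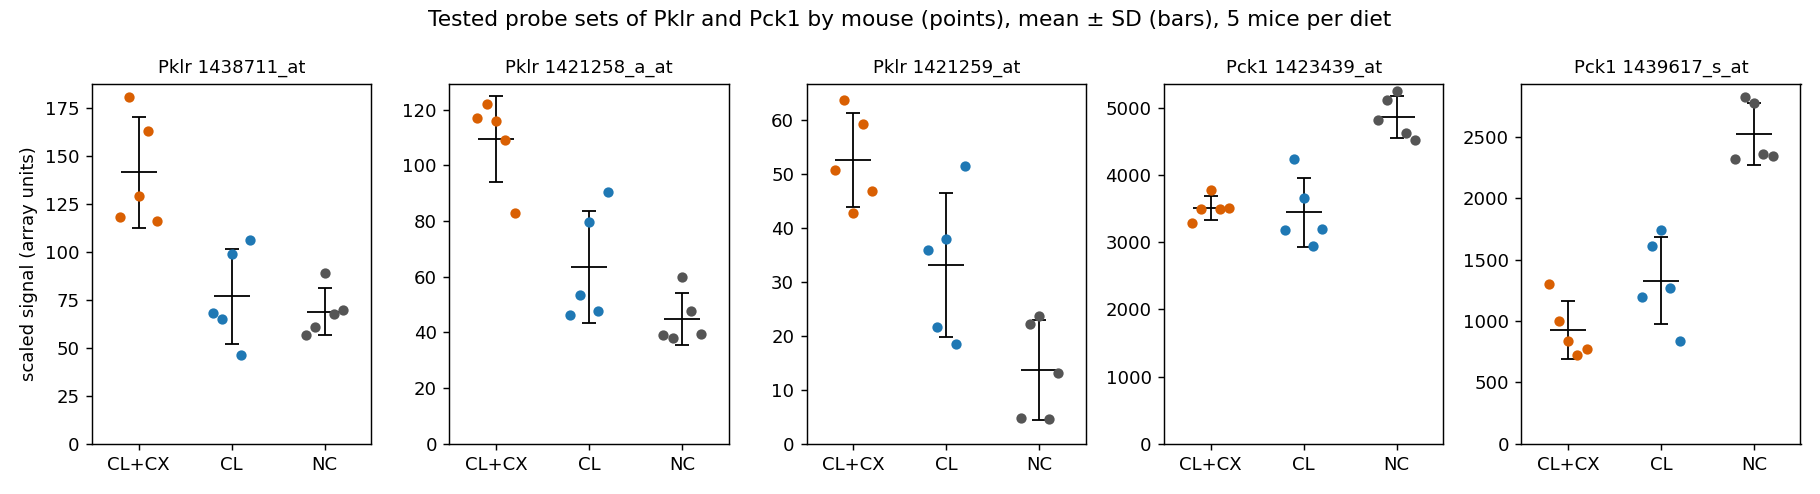
Scaled signal (array units, linear axis from 0) of the 3 Pklr and the 2 tested Pck1 probe sets, 1 point per mouse, with the mean and SD of 5 mice per diet. CL mice stood near NC mice in 1438711_at of Pklr and about midway between the others in 1421259_at (means 52.6 in CL+CX, 33.1 in CL and 13.7 in NC mice), and in 1439617_s_at of Pck1 the CL+CX mean of 926 lay below the CL mean of 1329.

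Pfkl, the liver subunit of phosphofructokinase, which commits sugar to glycolysis, did not pass in any comparison. Its signal was 58.1, 81.4, 69.2, 77.7 and 65.9 in CL+CX mice, 74.9, 68.7, 69.7, 65.4 and 78.9 in CL mice and 74.0, 102, 76.8, 55.5 and 80.3 in NC mice, and all 3 diets overlapped. The log2 difference was -0.10 in CL minus NC (95% interval -0.41 to 0.21), -0.03 in CL+CX minus CL (-0.34 to 0.28) and -0.13 in CL+CX minus NC (-0.44 to 0.19). The other tested probe set, 1450269_a_at, lay between -0.13 and 0.12 in the 3 comparisons, and 1453541_at, at 6.39 to 23.3, was too dim to be tested.

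Pck1, the cytosolic phosphoenolpyruvate carboxykinase and the entry step of gluconeogenesis, was lower on both CL diets. Its signal was 3280, 3492, 3780, 3497 and 3517 in CL+CX mice, 3180, 4238, 3655, 2942 and 3199 in CL mice and 4827, 5121, 5246, 4622 and 4516 in NC mice. No mouse on either CL diet reached the lowest NC mouse, and the 5 CL+CX mice lay inside the range of the CL mice. Pck1 was 1.42-fold lower in CL than NC mice (log2 -0.51, standard error 0.11, adjusted p = 0.0076) and 1.38-fold lower in CL+CX than NC mice (log2 -0.47, adjusted p = 0.0157). CL+CX and CL mice differed by 0.04 (95% interval -0.19 to 0.27, adjusted p = 0.884). With signals as deposited, without the scaling of arrays, the difference from NC was -0.19 in CL mice (adjusted p = 0.416) and -0.22 in CL+CX mice (adjusted p = 0.338), where the median of all probe sets tested was 0.23 in CL and 0.21 in CL+CX mice. In CL+CX mice it also lost its call with no filter (adjusted p = 0.0773) and with the β-actin covariate (0.0615).

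In a second Pck1 probe set, 1439617_s_at, the difference from chow was larger. It had 1300, 1001, 834, 726 and 772 in CL+CX mice, 1194, 1607, 1741, 1266 and 838 in CL mice and 2316, 2827, 2774, 2363 and 2342 in NC mice. Again every mouse on a CL diet lay below every NC mouse, and here the CL+CX mice reached below the CL mice while overlapping them. The log2 difference was -0.97 in CL minus NC (adjusted p = 0.00516), -1.47 in CL+CX minus NC (adjusted p = 0.000629) and -0.51 in CL+CX minus CL (95% interval -0.92 to -0.10, adjusted p = 0.159). The _s_at ending marks a probe set designed to match more than 1 transcript. The third Pck1 probe set, 1455209_at, lay below the array median on all 15 arrays and was not tested.

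Fbp1, the liver fructose-1,6-bisphosphatase, which reverses the phosphofructokinase step, was lower in CL than NC mice. Its signal was 5560, 6243, 6584, 5823 and 6785 in CL+CX mice, 4159, 7571, 5969, 4570 and 5268 in CL mice and 7661, 8367, 7971, 7458 and 7402 in NC mice. CL replicate 2 stood within the NC range, the other 4 CL mice below it, and every CL+CX mouse below every NC mouse. Fbp1 was 1.44-fold lower in CL than NC mice (log2 -0.53, standard error 0.14, adjusted p = 0.0246). The difference between CL+CX and NC mice, -0.33, did not pass despite groups that do not overlap (95% interval -0.63 to -0.03, adjusted p = 0.151), nor did that between CL+CX and CL mice (0.20, 95% interval -0.10 to 0.50, adjusted p = 0.474). The call against NC was lost without NC replicate 2 or 3 or CL replicate 1 or 4 (adjusted p = 0.0577, 0.0519, 0.0597 and 0.0595), and with quantile normalization (-0.25, adjusted p = 0.0664), signals as deposited (-0.21, 0.355), no filter (0.0973), the β-actin covariate (0.101) or CL+CX mice left out of the fit (0.0668).

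G6pc, the catalytic subunit of glucose-6-phosphatase, which releases glucose from its phosphate as the last step of both gluconeogenesis and glycogen breakdown, was the most scattered of the 8 in CL and NC mice. It had 1330, 1137, 1098, 1112 and 1375 in CL+CX mice, 933, 2041, 2650, 1146 and 1285 in CL mice and 1117, 1728, 3300, 2848 and 2598 in NC mice. The CL+CX mice were close together (coefficient of variation 10.8%) and the CL and NC mice were not (44.4% and 38.1%), with NC replicate 1 among the CL+CX values. The log2 difference was -0.84 in CL+CX minus NC (standard error 0.30, 95% interval -1.48 to -0.21, adjusted p = 0.0857), -0.53 in CL minus NC (adjusted p = 0.271) and -0.31 in CL+CX minus CL (adjusted p = 0.617), and none passed. Without NC replicate 1 the difference between CL+CX and NC mice was -1.08 and passed (adjusted p = 0.0325). This was the only 1 of the 15 fits with a mouse left out that passed (adjusted p up to 0.183).

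Gys2, the liver glycogen synthase, was lower in CL than NC mice. Its signal was 620, 645, 673, 634 and 556 in CL+CX mice, 379, 635, 500, 326 and 449 in CL mice and 816, 654, 615, 782 and 716 in NC mice. CL replicate 2 again stood with the NC mice, and the other 4 CL mice lay below every CL+CX and NC mouse. The means were 626 ± 43.3 in CL+CX, 458 ± 119 in CL and 717 ± 84.4 in NC mice (SD, n = 5 each). Gys2 was 1.60-fold lower in CL than NC mice (log2 -0.68, standard error 0.16, adjusted p = 0.011). The difference of 0.49 between CL+CX and CL mice did not pass with all mice (95% interval 0.15 to 0.82, adjusted p = 0.0998). It passed in 1 of the 15 fits with a mouse left out, that without CL replicate 2 (0.61, adjusted p = 0.0337), and the adjusted p reached 0.207 in the others. CL+CX and NC mice differed by -0.19 (95% interval -0.52 to 0.14, adjusted p = 0.464). The call in CL minus NC was lost with signals as deposited (-0.36, adjusted p = 0.217), no filter (0.0525), the methods' test (0.107) and the β-actin covariate (0.054).

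Pygl, the liver glycogen phosphorylase, which releases glucose phosphate from glycogen, did not pass in any comparison. It had 1699, 1905, 1777, 1912 and 1648 in CL+CX mice, 1467, 1446, 1514, 958 and 1717 in CL mice and 1354, 1446, 1775, 1217 and 1218 in NC mice. The CL+CX mice lay in the upper part of the range, overlapping 1 mouse of each other diet. The log2 difference was 0.36 in CL+CX minus CL (95% interval 0.03 to 0.68, adjusted p = 0.204), 0.36 in CL+CX minus NC (0.04 to 0.68, adjusted p = 0.136) and 0.01 in CL minus NC (-0.31 to 0.33, adjusted p = 0.982).

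Slc2a2, which encodes the low-affinity glucose transporter GLUT2, was higher in CL+CX than NC mice. Its signal was 2549, 2971, 2746, 2610 and 2115 in CL+CX mice, 1449, 1375, 1970, 945 and 2314 in CL mice and 1523, 1615, 1997, 1604 and 1486 in NC mice. All 5 CL+CX mice lay above all 5 NC mice, and CL replicate 5 was the single CL mouse above the lowest CL+CX mouse. Slc2a2 was 1.58-fold higher in CL+CX than NC mice (log2 0.66, standard error 0.20, adjusted p = 0.0453), which passed without 6 of the 15 mice in turn and not without the other 9 (adjusted p = 0.0168 to 0.0986 over all 15). It was also lost with no filter (adjusted p = 0.152), the β-actin covariate (0.224) and the replicate number as a block (0.0608). Between CL+CX and CL mice the log2 difference was 0.75 (95% interval 0.33 to 1.16) and did not pass, at an adjusted p of 0.0502. Of the 15 fits with a mouse left out it passed in 1, that without CL replicate 5 (0.90, adjusted p = 0.0153), and the adjusted p reached 0.124 in the others. It passed in 5 of 11 other settings, where the adjusted p reached 0.917. CL and NC mice differed by -0.09 (95% interval -0.51 to 0.33, adjusted p = 0.807).

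**Figure D4:**
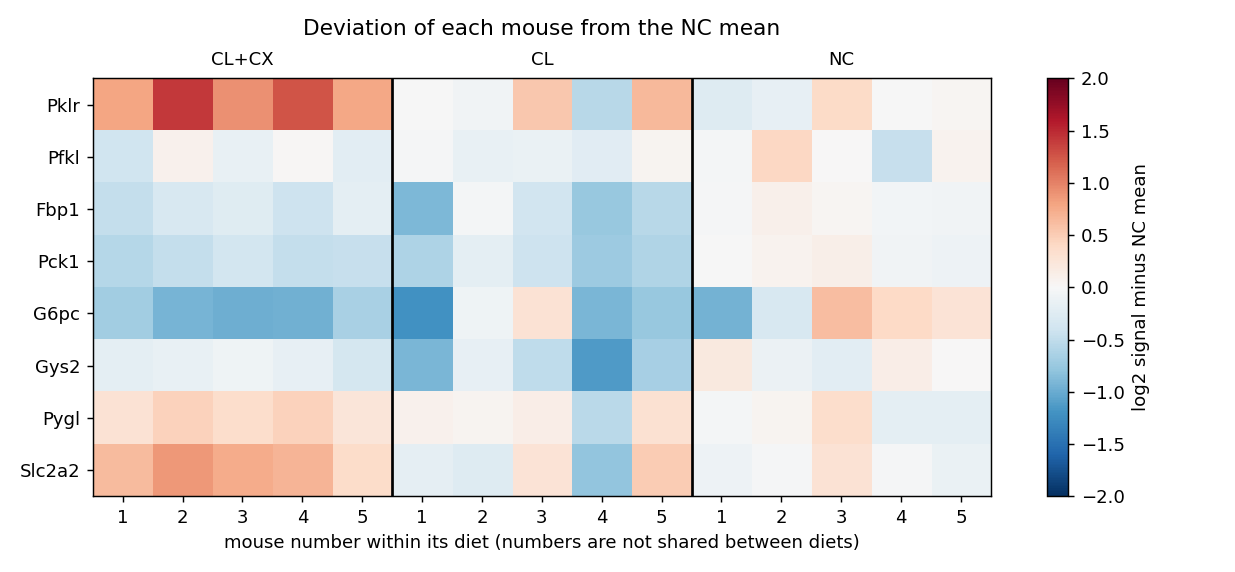
Log2 signal of each of the 8 genes in each of the 15 mice minus the NC mean, in colour from -2 (blue) to 2 (red), with mice numbered within their diet. Rows of Pklr, Slc2a2 and, more faintly, Pygl are red throughout CL+CX. Rows of Pck1, Fbp1, G6pc and, more faintly, Gys2 are blue throughout CL+CX. The CL columns differ among themselves, with replicate 4 blue in 8 rows.

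Some mice were lowest or highest of their diet in several of the 8 genes, and not in CL mice alone. How often each mouse was lowest or highest over all genes was not counted, so these counts are not read as a trait of the 8. NC replicate 3 had the highest NC signal of 5 of the 8 genes, and CL+CX replicate 5 the lowest CL+CX signal of 4. CL replicate 4 had the lowest CL signal of 6 of the 8 genes (Pklr, Pfkl, Pck1, Gys2, Pygl and Slc2a2). CL replicate 5 had the highest of 4 (Pklr, Pfkl, Pygl and Slc2a2) and CL replicate 2 the highest of 3 (Fbp1, Pck1 and Gys2). The summed hepatocyte signal was 62500 in CL replicate 2 and 39000 to 46500 in the other CL mice, and the macrophage sum 8950 in CL replicate 2 and 7430 to 10100 in the others. For 7 of the 8 genes, all but Pfkl, the SD of the log2 signal was larger in CL than CL+CX mice, beside 69.2% of all genes tested, and it stayed so for 7 without CL replicate 2, beside 57.1%.

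The 3 genes whose log2 signal over the 15 arrays was most like that of each gene with a call were noted as a description, among 10524 genes, and the points share diet, array and scaling. Pklr was most like Slc2a2 (Pearson r = 0.947), then Thrsp, a lipogenic gene of liver and fat (0.915), and Tcn2, which encodes transcobalamin (0.904). Slc2a2 was most like Pklr, then Slco2b1, an organic anion transporter gene (0.916), and Pygl (0.912). Thus 2 of the 8 named each other first. Pck1 was most like Serpinf1 (0.980), Fetub (0.974) and F10, clotting factor X (0.960). Fbp1 was most like Mrps2 (0.956), Cyp2d9 (0.950) and Ahcy (0.944), and Gys2 most like Sap30l (0.923), 1700001C19Rik (0.923) and Acaa1b (0.913).

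The hexokinases and the partner isozymes of the 8 enzymes, which other cells use more than hepatocytes do, were higher in CL than NC mice where they passed. Hk3, the hexokinase of myeloid cells, was 4.32-fold higher in its brightest probe set, 1442798_x_at (log2 2.11, standard error 0.30, adjusted p = 0.000412). Its signal was 74.8 to 168 in CL and 15.6 to 30.3 in NC mice. A second Hk3 probe set, 1435490_at, was at 1.21 (adjusted p = 0.00566). Pkm, the pyruvate kinase of most tissues other than liver, was 2.85-fold higher (log2 1.51, adjusted p = 0.00485), without overlap between the diets. Pfkp, the platelet-type phosphofructokinase, was at 0.88 (adjusted p = 0.0305) and Hk1, the hexokinase of many tissues, at 0.79 (adjusted p = 0.0325), also without overlap. NC signals were dim for Pkm (19.15 to 27.73), Pfkp (14.81 to 22.93) and Hk1 (19.13 to 31.95) as for Hk3, beside scaled array medians of 11.36 to 13.59. The sizes of these differences are therefore imprecise. Pygb, the brain-type phosphorylase (log2 1.01, adjusted p = 0.0599), and Hk2, the muscle hexokinase (1.38, adjusted p = 0.0629), did not pass. In CL+CX mice Hk3 was still 3.02-fold higher than NC mice (log2 1.59, adjusted p = 0.00503, and 0.78 at 0.0575 in the second probe set). Pkm (0.80, adjusted p = 0.103), Pfkp (0.39, adjusted p = 0.337) and Hk1 (0.65, adjusted p = 0.0801) did not pass against NC, and none of the 4 passed against CL (log2 -0.71 to -0.14). Beside these stand the macrophage sums given above, which were higher in every CL mouse than any NC mouse, and the part of those cells was not tested.

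**Figure D5:**
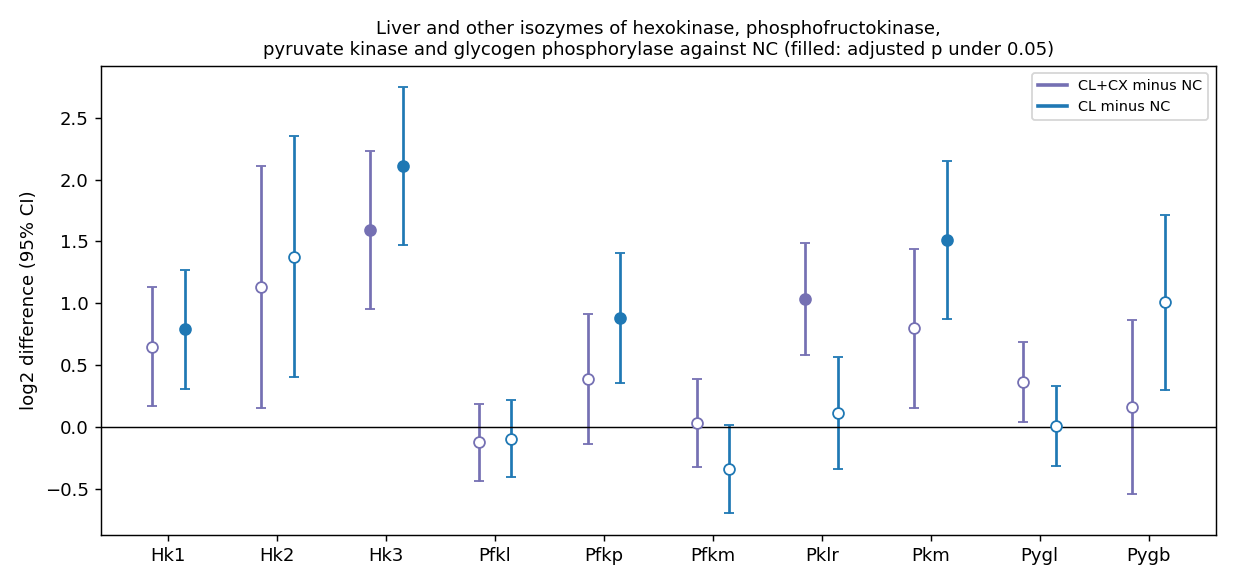
Log2 difference from NC (95% interval, limma, 5 mice per diet) of liver enzymes and their partner isozymes in CL+CX mice (left of each pair) and CL mice (right), where filled points passed an adjusted p of 0.05. Hk1, Hk3, Pfkp and Pkm passed in CL mice, and Hk3 and Pklr in CL+CX mice.

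No call was made for the remaining partners. Pck2, the mitochondrial carboxykinase, was at 0.35 in CL minus NC (adjusted p = 0.42), -0.17 in CL+CX minus CL (adjusted p = 0.781) and 0.19 in CL+CX minus NC (adjusted p = 0.696). G6pc3, the widely expressed phosphatase subunit, lay between -0.03 and 0.22, and Slc37a4, which carries glucose-6-phosphate to the phosphatase, was at 0.38 in CL+CX minus CL (adjusted p = 0.359). Slc2a1, the widely expressed glucose transporter, lay between -0.34 and 0.38, and Pfkm, the muscle phosphofructokinase, between -0.34 and 0.37. Gys1, Fbp2 and Pygm, the muscle forms of the synthase, the bisphosphatase and the phosphorylase, did not pass the signal filter.

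The rest of the 5 pathway lists held 93 genes, of which 72 were measured. Together, 5 were higher and 12 lower in CL than NC mice, 3 higher and 0 lower in CL+CX than CL mice, and 4 higher and 10 lower in CL+CX than NC mice, with medians of -0.17, 0.08 and 0.06 on the log2 scale. Over all genes tested, the shares were 7.18% higher and 6.77% lower, 1.46% higher and 1.79% lower, and 5.07% higher and 4.87% lower in the same comparisons, to be set beside the counts of each list that follow. The 5 and 4 higher genes were near those shares, and lists of 7 to 18 genes are too short to be read against them. Glycolysis had 4 higher (those above) and 2 lower of 17 in CL against NC mice, where Aldoc, an aldolase (-0.83, adjusted p = 0.0339), and Ldhb, a lactate dehydrogenase subunit (-0.51, adjusted p = 0.038), fell. Both were also lower in CL+CX than NC mice (Aldoc -0.84, adjusted p = 0.0385, and Ldhb -0.72, adjusted p = 0.009), but the other 2 Ldhb probe sets did not pass.

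In gluconeogenesis, 0 were higher and 2 lower of 13 in CL against NC mice. Got1, the cytosolic aspartate aminotransferase of the malate shuttle, was 2.80-fold lower (log2 -1.49, standard error 0.43, adjusted p = 0.0357), at 423 to 2927 in CL and 1890 to 4436 in NC mice, and it was also lower in CL+CX than NC mice (-1.60, adjusted p = 0.0308), at 723 to 1368. Gpd1, the cytosolic glycerol-3-phosphate dehydrogenase that brings in glycerol, was at -0.77 in CL minus NC (adjusted p = 0.00421) and at -0.32 in CL+CX minus NC (adjusted p = 0.197), where a dimmer probe set, 1416204_at, passed at -0.48 (adjusted p = 0.0424). Neither passed between CL+CX and CL mice.

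Among the 17 glycogen genes measured, 1 was higher and 3 lower in CL than NC mice. Gyg, glycogenin, which primes the glycogen particle, rose (0.58, adjusted p = 0.0207), and Pgm1, phosphoglucomutase (-0.60, adjusted p = 0.00122), the lysosomal glucosidase Gaa (-0.55, adjusted p = 0.00858) and the glycogen-binding Stbd1 (-0.50, adjusted p = 0.04) fell. Stbd1 kept its call in 5 of the 15 fits with a mouse left out, and the second Gaa probe set, 1419428_a_at, did not pass (-0.42, adjusted p = 0.129). A second Pgm1 probe set, 1437240_at, was at -0.08 in CL minus NC and at 0.82 in CL+CX minus NC (adjusted p = 0.0411), against -0.35 (adjusted p = 0.038) for the brightest one, so that the direction for Pgm1 in CL+CX mice is not settled. Between CL+CX and NC mice 2 were higher and 4 lower. The branching enzyme Gbe1 was 1.85-fold higher (0.89, adjusted p = 0.0207), at 320 to 419 in CL+CX and 150 to 267 in NC mice. Ugp2, which makes the UDP-glucose that glycogen synthase uses, was at 0.53 (adjusted p = 0.0488) in its brightest probe set. Its other tested probe sets also passed, at 0.70 (adjusted p = 0.0162), 0.84 (0.00205), 0.72 (0.00439) and 0.76 (0.00591). Ppp1r3b, the liver subunit that brings protein phosphatase to glycogen, was 2.32-fold lower (-1.21, adjusted p = 0.00416), at 419 to 557 in CL+CX, 346 to 943 in CL and 971 to 1366 in NC mice. Ppp1r3g, a further subunit of this phosphatase, was below the array median on every CL+CX array and at 31.4 to 200.5 in NC mice. Its level was at or above the median on 2 of 5 CL arrays. It is among the 4 lower, but it passed the signal filter through NC mice alone, where it was high. No fold or p-value is therefore given for it. No gene on the list passed between CL+CX and CL mice, although a dimmer probe set of Ppp1r3c, 1425631_at, did (-1.59, adjusted p = 0.0205), where the brightest was at -1.03 (adjusted p = 0.101).

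Of 7 genes of sugar transport and fructose use, 1 (Slc2a8, an intracellular transporter, -0.55, adjusted p = 0.0158) was lower in CL than NC mice. Tkfc, which phosphorylates the glyceraldehyde made from fructose, was 1.99-fold higher in CL+CX than CL mice (log2 0.99, adjusted p = 0.0261) and 2.12-fold higher than NC mice (1.08, adjusted p = 0.0064). Its signal was 191 to 360 in CL+CX, 105 to 227 in CL and 93.5 to 147 in NC mice. No other gene of this list passed.

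The list of regulators of glucose enzymes, with 18 genes measured, also holds Tat, an enzyme gene that is counted as lower in both comparisons with NC. Of this list, CL mice had 0 higher and 4 lower when set against NC mice. CL+CX mice had 2 higher and 0 lower when set against CL mice, and 0 higher and 3 lower when set against NC mice. Cebpa, the C/EBPα factor that drives hepatocyte genes including those of gluconeogenesis, was at 850 to 1109 in CL+CX, 512 to 616 in CL and 752 to 924 in NC mice. The CL mice lay below both other diets without overlap, at -0.53 in CL minus NC (adjusted p = 0.00559) and 0.83 in CL+CX minus CL (adjusted p = 0.00272). Foxa2, a forkhead factor of liver genes, was 1.89-fold higher in CL+CX than CL mice (0.92, adjusted p = 0.0326) with overlap, a call kept in 8 of the 15 fits with a mouse left out and in 5 of 11 other settings, where the value with the β-actin covariate was 0.45. Tat, tyrosine aminotransferase, a marker of glucocorticoid and fasting signals, was at -1.07 in CL minus NC (adjusted p = 0.0126) and -1.52 in CL+CX minus NC (adjusted p = 0.00245). Foxo3 (-0.79, adjusted p = 0.0127) and Hnf4a (-0.56, adjusted p = 0.0226), which encode further factors of metabolic genes, were lower in CL than NC mice in their brightest probe sets, and so was a second Hnf4a probe set, 1421983_s_at (-0.42, adjusted p = 0.0422). The other 2 Hnf4a probe sets (0.24 and -0.48) and the other Foxo3 probe set (-0.35, adjusted p = 0.0526) did not pass, and the Hnf4a call was kept in 4 of 11 other settings. This dimmer Foxo3 probe set was higher in CL+CX than CL mice (0.62, adjusted p = 0.0146). Mlxipl, which encodes ChREBP, the factor of the carbohydrate response element shown for Pklr, was at 423 to 729 in CL+CX, 334 to 562 in CL and 423 to 525 in NC mice, and did not pass (0.47 in CL+CX minus CL, adjusted p = 0.117). Gckr, which encodes a regulator of liver sugar phosphorylation, lay between 0.10 and 0.37 and did not pass.

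Clock genes moved beside these in both directions. Of 15, CL+CX mice had 8 higher and 4 lower when set against CL mice, and 8 higher and 3 lower when set against NC mice. The D-box factors named next were picked after their values were seen, and the lower clock genes are not named. These factors therefore do not stand for the list. Dbp, whose product binds the D-box, was 17.4-fold higher in CL+CX than CL mice and 12.3-fold higher than NC mice. Tef was higher against both (log2 difference 1.17 against CL and 0.42 against NC mice), whereas Hlf was higher against CL mice (log2 difference 0.85). G6pc, whose window holds D-box letters, was at -0.31 and -0.84 in the same comparisons and did not pass. The part of the clock in the values of Pklr, Pck1 and Slc2a2 was not tested, and the diet and the state of the clock cannot be told apart here.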

How the data were processed

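Liver RNA of 15 mice was hybridised by the authors to 1 Affymetrix GeneChip mouse genome array per mouse after 3′ IVT labelling, and MAS5 summarised each probe set. The values they deposited are unlogged signal intensity, with array 75th percentiles of 41.24 to 78.75, so the scaling, chow baseline and Present filter of the methods are not in them. Here, 64 control probe sets were left out, each array was scaled to a 75th percentile of 54.11, signals below 1 (11.24% of all) were raised to 1, and log2 was taken. Probe sets at or above their array median in all 5 arrays of at least 1 diet were tested (20361). Scaled array medians were 11.36 to 13.59, and dim probe sets near them are measured with little precision, as is everything at 5 mice per diet.

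Gene symbols came from the platform annotation, in which 34958 of 45101 probe sets have 1 symbol, 932 several and 9211 none; list genes without a matching symbol were not analysed here. The 3 diet means were fitted together with limma 3.58.1 in R 4.3.3, without pairing mice by number, since same-numbered mice did not deviate together. P-values were adjusted by Benjamini-Hochberg over probe sets. The labels do not say that the mice of a diet were caged apart, so p-values measure only the spread between these samples. Promoters were searched and figures drawn in Python 3.11.15 with matplotlib 3.10.9. limma was tested on simulated data. The alternatives tried were no filter, a filter at the 75th percentile, an offset of 16, quantile normalization, signals as deposited, the methods' test (over 3 diets with a post hoc comparison), a trend with a robust prior, 2 diets only, the replicate number as a block, the mean of a gene's probe sets, the β-actin 3′ to 5′ covariate and each mouse left out. The 8 genes, the lists and the motifs were chosen with earlier results of these data known. Named in the text were the 8 genes, partner isozymes, Slc37a4, Gckr and Mlxipl, and up to 4 called genes of each other list per comparison with the largest difference. Further probe sets of these genes and the clock genes were named after their values were seen.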

Additional observations from a re-analysis of the deposited data

Results flagged for a closer look

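Of the 24 sets of 5 mice (8 genes in 3 diets) that were examined for a mouse far from the others of its diet, 1 held such a mouse, and chance marks about 1 in 20 such sets. It was Slc2a2 in NC mice, where replicate 3 had a signal of 1997 and the other NC mice 1486 to 1615. The gap to the nearest mouse made up 0.717 of the range of the diet, against a critical value of 0.71 for 5 mice. NC replicate 3 also had the highest NC signal of 5 of the 8 genes (Pklr, Pck1, G6pc, Pygl and Slc2a2), and the share over all genes was not counted. Without it, Slc2a2 was at 0.73 on the log2 scale in CL+CX minus NC and passed (adjusted p = 0.0471).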

How the results depend on the processing

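The counts of called genes among the 8 depended on the setting. In CL minus NC, where 3 were lower, 1 remained with no filter and with the β-actin covariate (Pck1 in both) and 0 with signals as deposited, where the median of all probe sets moved to 0.23, against -0.09 after scaling, and 96.2% of the called probe sets were higher, against 48.1%. In CL+CX minus CL, where 1 was higher, 0 passed with no filter, with signals as deposited, with the β-actin covariate and with only the 2 diets compared, and 2 passed (Pklr and Slc2a2) with the stricter filter, with an offset of 16, with the methods' test and with a trend and robust prior. The mean of a gene's probe sets also gave 1, but it was Slc2a2 and not Pklr. In CL+CX minus NC, where 3 passed, 1 remained with no filter (Pklr) and 0 with the covariate, 2 with signals as deposited (Pklr and Slc2a2), and 4 each with the stricter filter (which added G6pc, adjusted p = 0.0454), with quantile normalization (Pygl, 0.0281) and with only the 2 diets compared (Fbp1, 0.0305). With 1 mouse left out the counts were 2 to 3, 0 to 2 and 2 to 3. In the second of these comparisons, 0 passed without CL replicate 1 or 4 or CL+CX replicate 2, 3 or 4, 2 passed without CL replicate 5, and without CL replicate 2 the call was Gys2.

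Same-numbered mice correlated at -0.0144 to 0.135 for CL and NC, -0.132 to 0.045 for CL+CX and CL and -0.0906 to 0.0636 for CL+CX and NC, and 3, 0 and 0 of the 5 mice listed first in these pairs correlated best with their own number, so the numbers were not taken as pairs. With the replicate number as a block, 3, 0 and 2 of the 8 genes passed. Pklr was at an adjusted p of 0.0565 in CL+CX minus CL, and Slc2a2 at 0.0608 in CL+CX minus NC.

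Values that changed sign had not passed the test. With signals as deposited, Pfkl was at 0.22, Slc2a2 at 0.23, Slc37a4 at 0.12 and Mlxipl at 0.11 in CL minus NC, Pck1 at -0.03 in CL+CX minus CL, and Pfkl at 0.12 and Gys2 at 0.0552 in CL+CX minus NC. Slc2a2 in CL minus NC was also at 0.088 with quantile normalization and at 0.0234 with the covariate. With the mean of a gene's probe sets, Pfkl was at 0.0472 and Pck1 at -0.23 in CL+CX minus CL. With the covariate, G6pc3 was at 0.0654, Hk2 at 0.35 and Pfkp at 0.17 in CL+CX minus CL, and Pfkm at -0.14 in CL+CX minus NC. With 1 mouse left out, values near 0 changed sign in CL minus NC (Pklr -0.0201 to 0.28, Pfkl -0.21 to 0.0085, Pygl -0.0678 to 0.14, Slc2a2 -0.24 to 0.0855), in CL+CX minus CL (Pfkl -0.0835 to 0.0378, Pck1 -0.0137 to 0.12, G6pc3 -0.20 to 0.0525, Hk1 -0.30 to 0.0162) and in CL+CX minus NC (Pygb -0.25 to 0.28, Pfkm -0.043 to 0.073, Slc2a1 -0.0574 to 0.17). The cause was not tested.

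Over all probe sets, 2492 were called in CL minus NC, 635 in CL+CX minus CL and 1983 in CL+CX minus NC. In the same order there were 1126, 38 and 604 with no filter, 1138, 1 and 661 with the covariate (1113 at an unadjusted p under 0.05 in CL+CX minus CL), 2147, 361 and 1677 with the replicate block, 1573, 972 and 1746 with the methods' test, 1700, 142 and 3209 with only the 2 diets compared, and 1718 to 3852, 104 to 972 and 1207 to 3071 with 1 mouse left out. An offset of 16 gave 992 in CL+CX minus CL. With signals as deposited there were 2317, 81 and 1946, of which 96.2%, 28.4% and 90.3% were higher, against 48.1%, 50.4% and 48.9% after scaling. Of the values of other called genes named in the text, under all settings but those that leave out a mouse, 247 kept the call and direction and 88 lost the call. Fits with a mouse left out kept the call of the brightest Ugp2 probe set in CL+CX minus NC in 3 of 15. In the same comparison they kept that of Foxo3 in 3, Hnf4a in 4, Got1 in 7 and Aldoc in 8. In CL minus NC they kept that of Got1 in 8, Pfkp in 9, Hk1 in 10, Aldoc in 11 and Gyg in 12. In CL+CX minus CL they kept that of Tkfc in 10.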
